A study of Homo sapiens with 8 samples.

Results

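The genes described here are 10 that code for adhesion and junction proteins of the epithelial cell surface: the carcinoembryonic antigen genes CEACAM1, CEACAM5, CEACAM6 and CEACAM7, and the claudins CLDN1, CLDN2, CLDN3, CLDN4, CLDN7 and CLDN18. Their probes were taken by name, as the non-control probes whose gene name on the array is one of these symbols, which gave 12 of 34127 gene probes. The genes themselves were chosen with earlier results of these data known. CEACAM1 and CEACAM7 had 2 probes each and the other genes had 1.

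The study knocked down HOXB7, a homeobox transcription factor gene, in MIA PaCa-2 and Capan-1, established lines derived from pancreatic ductal adenocarcinoma, and asked which transcripts changed. RNA from 4 groups was hybridized to Agilent human arrays with a single dye, with 2 arrays per group. The groups were parental MIA PaCa-2, MIA PaCa-2 transfected with 10 nM of a HOXB7-specific siRNA and collected 48 hours later, parental Capan-1, and Capan-1 transfected in the same way. Parental cells were not transfected and no array of a scrambled siRNA was analysed here, so that the siRNA comparisons also hold any effect of transfection. No label names the duplex that was used, and none says that duplicates came from separate cultures, so that p-values measure the spread between these arrays, which may be technical. MIA PaCa-2 was grown in RPMI medium and Capan-1, a line from a liver metastasis, in IMDM with more serum. For transfection the methods describe plating in RPMI on the day before, without naming a line. The Capan-1 siRNA comparison may therefore also hold a change of medium. The 4 arrays of each line lay on a slide of their own, and therefore cell line, medium and slide cannot be told apart.

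CEACAM proteins are immunoglobulin-like glycoproteins that bind each other and related molecules on neighbouring cells. CEACAM5, the carcinoembryonic antigen, and its relatives CEACAM6 and CEACAM7 are held in the membrane by a lipid anchor, while CEACAM1 crosses it and carries a signalling tail. Claudins are the membrane strands of tight junctions, which seal the space between epithelial cells or, for some members, form pores through it, and several members of both families are studied as surface targets in pancreatic tumours.

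The 4 CEACAM genes lie in a cluster on chromosome 19. In the hg18 coordinates of the array, the CEACAM7 and CEACAM5 probes were 46.9 kb apart, the CEACAM5 and CEACAM6 probes 50.4 kb, and the CEACAM6 and CEACAM1 probes 736.1 kb. The 250 bases before the RefSeq start of each of these genes (GRCh38.p14) are shown because all 4 genes were lower in MIA PaCa-2 than in Capan-1. The windows are chr19:41708376-41708625 on the plus strand for CEACAM5, chr19:41755280-41755529 on the plus strand for CEACAM6, chr19:41688271-41688520 on the minus strand for CEACAM7 and chr19:42528482-42528731 on the minus strand for CEACAM1. Each is written 5′ to 3′ in the direction of the gene, and capitals mark the matches, on either strand, to CACCTG (an E-box core), GGGCGG (a GC box) and TATAAA.
CEACAM5: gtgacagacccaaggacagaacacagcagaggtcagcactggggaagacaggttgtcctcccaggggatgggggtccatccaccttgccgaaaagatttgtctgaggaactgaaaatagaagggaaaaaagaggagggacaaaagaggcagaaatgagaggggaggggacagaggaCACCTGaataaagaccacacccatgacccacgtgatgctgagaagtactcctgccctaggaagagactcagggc
CEACAM6: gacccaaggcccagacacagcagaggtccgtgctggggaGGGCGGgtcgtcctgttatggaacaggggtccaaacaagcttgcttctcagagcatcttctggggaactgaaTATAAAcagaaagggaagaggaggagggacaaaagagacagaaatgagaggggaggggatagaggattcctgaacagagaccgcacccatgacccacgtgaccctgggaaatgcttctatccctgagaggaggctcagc
CEACAM7: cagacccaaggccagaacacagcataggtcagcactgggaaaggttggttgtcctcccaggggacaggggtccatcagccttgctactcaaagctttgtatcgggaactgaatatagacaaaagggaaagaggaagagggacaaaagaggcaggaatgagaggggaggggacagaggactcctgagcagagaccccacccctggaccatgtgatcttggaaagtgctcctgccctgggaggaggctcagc
CEACAM1: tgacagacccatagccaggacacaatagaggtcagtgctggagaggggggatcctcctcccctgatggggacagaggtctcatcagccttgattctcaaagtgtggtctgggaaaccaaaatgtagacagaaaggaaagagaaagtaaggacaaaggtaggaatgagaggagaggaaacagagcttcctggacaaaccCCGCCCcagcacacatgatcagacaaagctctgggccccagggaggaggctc
The 4 windows were alike in sequence. Pairwise identity over the aligned bases was 84.0% for CEACAM5 and CEACAM7, 80.2% for CEACAM6 and CEACAM7, 78.1% for CEACAM5 and CEACAM6, and 72.0% to 75.8% for CEACAM1 with the other members. The marked matches lay at different places in them. CEACAM5 held CACCTG 74 bases before its start, CEACAM6 held GGGCGG at 211 and TATAAA at 139 bases, CEACAM1 held GGGCGG at 52 bases, and CEACAM7 held none of them. Of 35116 RefSeq windows of the same length, 17.5% held CACCTG, 42.6% GGGCGG and 10.7% TATAAA. A match describes letters and is no evidence of a bound site.

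The claudin windows were richer in G and C at some starts. The window of CLDN3 (chr7:73770271-73770520) had 71.6% G and C, against a median of 58.0% over all windows, and held 4 GGGCGG matches. An upstream window of CLDN7 (chr17:7262479-7262728) had 71.2% G and C and held 4 CACCTG matches, at 174, 135, 20 and 9 bases before the start. CLDN1 held 2 GGGCGG matches and CLDN4 held 1. The windows of CLDN2, which has 2 RefSeq starts, held no match, and of the 2 starts of CLDN18 the first held CACCTG at 99 bases.

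Each level below is the brightness of a 60-base probe. As examples, the probes of CEACAM5 (chr19:46916824-46916883, hg18), CEACAM1 probe 2 (chr19:47717295-47717354) and CLDN7 (chr17:7104546-7104710) are given in full, 5′ to 3′. Each has an open reading frame throughout, which other member probes, such as those of CEACAM6 and CLDN4, have too. The CLDN7 probe spans 165 bases of the genome, more than its own length, and thus joins 2 separate stretches of it.
CEACAM5 probe: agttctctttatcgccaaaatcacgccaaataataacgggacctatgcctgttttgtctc
CEACAM1 probe 2: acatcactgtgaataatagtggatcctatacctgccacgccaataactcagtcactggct
CLDN7 probe: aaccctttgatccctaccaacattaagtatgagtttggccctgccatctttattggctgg
The probes of CLDN1 (chr3:191506695-191506754), CLDN2 (chrX:106060688-106060747) and CLDN3 (chr7:72821263-72821322) held AATAAA, the letters of the polyadenylation signal. Such a match is no evidence that a signal is used there. The CLDN4 probe (chr7:72884843-72884902) lay 63.6 kb from that of CLDN3, and the CLDN18 probe was at chr3:139235027-139235086. The CEACAM6 probe was at chr19:46967274-46967333, CEACAM7 probe 1 at chr19:46869948-46870007, CEACAM7 probe 2 at chr19:46870294-46870353 and CEACAM1 probe 1 at chr19:47703344-47703403. No annotation of this build was used, so exons and untranslated regions were not assigned. The longest run of bases that a member's probe shared with a probe of another gene was 13 to 18, but binding of the RNA of 1 CEACAM gene to the probe of another was not tested.

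The arrays were of similar brightness, with a median spot intensity of 39.5 to 54.0 and 69.2% to 74.3% of spots well above background by the scanner software. Levels are given as log2 intensity minus the 75th percentile of the gene probes of that array, so that 0 is a probe at that percentile. HOXB7 itself was at -4.82 and -4.09 on the parental and -7.76 and -7.78 on the siRNA arrays of MIA PaCa-2, where it was not well above background after siRNA and fell at least 3.16-fold (limma adjusted p = 0.0129). This call was lost with the normexp background correction (log2 change -0.10, adjusted p = 0.596), with no filter on dim probes (adjusted p = 0.0515) and with the MIA PaCa-2 arrays fitted alone (adjusted p = 0.111). In Capan-1 it was at -2.48 and -2.34 before and -5.26 and -4.80 after siRNA, a log2 change of -2.62 that did not pass the threshold (limma adjusted p = 0.0892) but did without siRNA replicate 2 (adjusted p = 0.0380), and over the other alternatives the adjusted p ranged from 0.00388 to 0.192. The epithelial keratin KRT19 was at 6.73 or higher on all 8 arrays. CDH1 and EPCAM, which code for the epithelial adhesion proteins E-cadherin and EpCAM, were not well above background on any MIA PaCa-2 array, while VIM, the mesenchymal filament gene vimentin, was at 7.87 and 8.01 in parental MIA PaCa-2 and at -1.01 and -1.11 in parental Capan-1 (limma adjusted p = 1.69e-07). Of the 6 mesenchymal probes, those of VIM and ZEB1 (3 probes) were higher in MIA PaCa-2, and the other 3 were lower there, both probes of the N-cadherin gene CDH2 and the probe of the fibronectin gene FN1. Of 8 leukocyte probes 5 were tested between the parental lines, with 3 higher and 2 lower in MIA PaCa-2. The summed linear level of these 8 probes was 4.02 to 4.16 in parental MIA PaCa-2 and 0.706 to 0.746 in parental Capan-1, with 3 and 4 of them well above background on no array, and their part in any result was not tested.

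In parental cells, every member probe that was tested was lower in MIA PaCa-2 than in Capan-1. CEACAM6, CLDN3 and CEACAM5 differed most: CEACAM5 and CEACAM6 were bright in Capan-1 and not well above background in MIA PaCa-2, and CLDN3 was well above background on 1 of 2 parental MIA PaCa-2 arrays. CLDN4 was well above background in both lines, and CLDN2 differed least. A probe entered the test if at least 1 of the compared groups had a signal well above background in duplicate, which held for 11 of the 12 probes, and all 11 passed at a limma adjusted p under 0.05 (9 genes). Over the 24968 probes tested, 70.4% passed, 31.1% in this direction and 39.3% in the other, and the median log2 difference was 0.11, against -4.59 over the 11 member probes. CEACAM5, CEACAM6, CEACAM7 probe 2 and CLDN3 entered only through their signal in Capan-1, a route that favours this direction. Of the 7 member probes well above background on all 8 arrays, 7 were lower with a median of -2.93, while of 20376 such probes 29.8% were lower and 40.2% higher, with a median of 0.12. The groups did not overlap for 11 of 11 member probes, against 86.4% of all probes. Because the members were chosen with earlier results of these data known, these counts beside all probes are a description only.

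**Figure D1:**
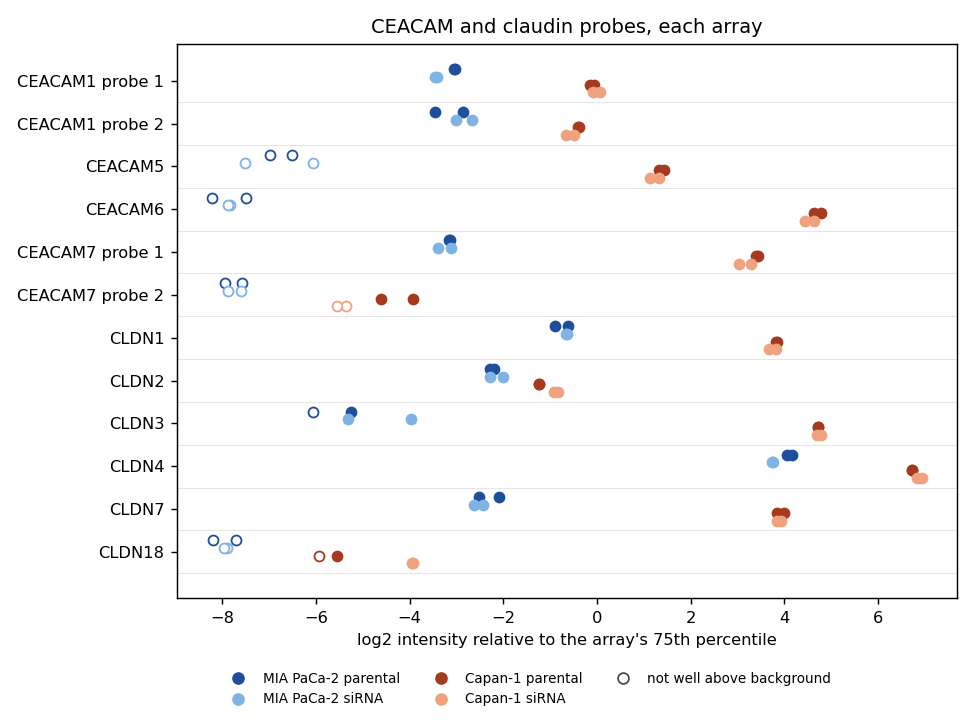
Log2 intensity relative to the 75th percentile of its array (x axis) for each of the 12 CEACAM and claudin probes (rows) on the 8 arrays, 1 circle per array and colour by group; open circles were not well above background. All Capan-1 arrays lie to the right of all MIA PaCa-2 arrays in every row, and the siRNA and parental means of a line lie more than 1 apart for CLDN18 and CEACAM7 probe 2 in Capan-1 and for CLDN3 in MIA PaCa-2.

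Among the lipid-anchored members, CEACAM6 was at 4.64 and 4.77 on the parental Capan-1 arrays and at -8.21 and -7.50 on the parental MIA PaCa-2 arrays. CEACAM6 was thus lower in MIA PaCa-2 by at least 1733-fold (fitted log2 difference -12.56 ± 0.23 SE, limma adjusted p = 2.94e-07). These lower bounds set the bright group against the dimmest signal still called well above background on the dim arrays, and are given where the dim levels lay below it. That signal is the lowest over all probes of an array, and some probes brighter than it were not called well above background. A bound is therefore approximate for a single probe and may be too large. CEACAM5 was at 1.33 and 1.43 in parental Capan-1 and at -6.50 and -6.97 in parental MIA PaCa-2, at least 173-fold lower (log2 difference -8.12 ± 0.45 SE, limma adjusted p = 1.61e-05). Neither gene was well above background on any of the 4 MIA PaCa-2 arrays, which places an upper limit on its level there and does not show that it was absent.

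CEACAM7, a member found mainly in normal colon epithelium, was measured by 2 probes that lie within 1 kb of each other. Probe 1 was at 3.40 and 3.44 in parental Capan-1 and at -3.15 and -3.16 in parental MIA PaCa-2, a log2 difference of -6.57 ± 0.13 SE (limma adjusted p = 3.90e-07), with a signal well above background on all 8 arrays. Probe 2 was at -4.61 and -3.94 in parental Capan-1 and at -7.93 and -7.57 in parental MIA PaCa-2, where it was not well above background, and differed by at least 3.43-fold (limma adjusted p = 4.90e-05). The direction was that of probe 1, but on the siRNA arrays of both lines probe 2 was not well above background.

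CEACAM1, the transmembrane member, differed less. Its probe 1 was at -0.06 and -0.16 in parental Capan-1 and at -3.03 and -3.06 in parental MIA PaCa-2 (log2 difference -2.93 ± 0.09 SE, limma adjusted p = 1.46e-06). Probe 2 was at -0.41 and -0.39 in parental Capan-1 and at -2.87 and -3.46 in parental MIA PaCa-2 (log2 difference -2.77 ± 0.22 SE, limma adjusted p = 6.95e-05). Both probes were well above background on all arrays and gave the same order of the lines.

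Among the claudins that seal the junction, CLDN3 was at 4.71 and 4.72 in parental Capan-1 and at -5.25 and -6.05 in parental MIA PaCa-2 (log2 difference -10.37 ± 0.46 SE, limma adjusted p = 6.25e-06). The second of these MIA PaCa-2 values was not well above background, and the difference was -9.97 without that array. CLDN7 was at 3.84 and 3.98 in parental Capan-1 and at -2.53 and -2.09 in parental MIA PaCa-2 (log2 difference -6.22 ± 0.16 SE, limma adjusted p = 8.83e-07). CLDN1 was at 3.82 and 3.84 in parental Capan-1 and at -0.91 and -0.61 in parental MIA PaCa-2 (log2 difference -4.59 ± 0.12 SE, limma adjusted p = 9.00e-07). CLDN7 and CLDN1 were well above background on every array, so that these differences lie between 2 measured levels. CLDN4, a receptor for the Clostridium enterotoxin, was at 6.72 and 6.73 in parental Capan-1 and at 4.17 and 4.06 in parental MIA PaCa-2, a log2 difference of -2.61 ± 0.08 SE or 6.11-fold (limma adjusted p = 1.90e-06). CLDN3 and CLDN4 are neighbours on chromosome 7, and in parental MIA PaCa-2 the probe of CLDN4 was well above background in duplicate and that of CLDN3 on 1 of 2 arrays.

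CLDN2, which forms a pore for cations and water, was at -1.23 and -1.24 in parental Capan-1 and at -2.19 and -2.28 in parental MIA PaCa-2, a log2 difference of -1.0 ± 0.11 SE (limma adjusted p = 3.78e-04). CLDN18, the claudin of stomach and lung epithelium, was at -5.94 and -5.54 in parental Capan-1 and at -8.19 and -7.71 in parental MIA PaCa-2. It was well above background on 1 of 2 parental Capan-1 arrays and on no MIA PaCa-2 array, and the parental difference was therefore not tested. Which of the CLDN18 transcripts its probe covers was not determined.

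Of the 12 member probes, 7 were well above background on both parental MIA PaCa-2 arrays and 11 on both parental Capan-1 arrays, whereas the share of all gene probes was nearly the same, at 66.9% and 67.3%. After siRNA the number was 8 in MIA PaCa-2, through CLDN3, and 11 in Capan-1, where CLDN18 was added and CEACAM7 probe 2 was lost. All 11 parental differences kept their direction and their call under each alternative that tested them. Another background correction (normexp with an offset of 50) brought them closer to 0, to -6.97 for CEACAM6, -7.07 for CLDN3, -3.61 for CEACAM5 and -0.29 for CEACAM7 probe 2 on the log2 scale.

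The other genes of these families and of the junctions showed where the members stood. Of 13 probes of other claudins 5 were lower in MIA PaCa-2 and 3 higher, against 31.1% and 39.3% of all probes. Their median log2 difference was -0.25, and 5 did not pass. Of the 11 that were well above background on all 8 arrays, 3 were lower and 3 higher. CLDN11, the claudin of myelin and testis, was higher in MIA PaCa-2 by 6.04 on the log2 scale (limma adjusted p = 3.16e-07), with levels of 4.54 and 4.31 there and -1.57 and -1.67 in parental Capan-1. CLDN23 and CLDN12 were lower in MIA PaCa-2 by the fit, with log2 differences of -3.63 (limma adjusted p = 4.13e-07) and -2.32 (2.89e-06). CLDN14 was lower by a fitted 2.52-fold (limma adjusted p = 0.00317), with levels in parental MIA PaCa-2 that were not well above background.

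Of 6 probes of other CEACAM genes 4 were lower in MIA PaCa-2 and 2 higher, against 31.1% and 39.3% of all probes. Their median was -2.03. The probes of CEACAM3 and CEACAM18 entered only through Capan-1, and of the 3 probes well above background on all 8 arrays 1 was lower and 2 were higher, with a median of 1.52. Both CEACAM3 probes were lower, by at least 91.7-fold and 90.3-fold (limma adjusted p = 2.94e-07 and 8.03e-07), and they share most of their sequence and so are not independent. CEACAM3 is known as a receptor of granulocytes, and its probes were at 0.43 to 0.50 in parental Capan-1, where CEACAM5 and CEACAM6 were bright; binding of their RNA to the CEACAM3 probes was not tested. CEACAM18 was lower in MIA PaCa-2 by at least 2.86-fold (limma adjusted p = 0.0120) and CEACAM4, another granulocyte member, by -1.58 on the log2 scale (3.18e-04). CEACAM20 was higher in MIA PaCa-2, with a log2 difference of 1.74 (limma adjusted p = 1.54e-04), so that both families held genes of either order.

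Tight junction partners are the scaffold, polarity and other membrane proteins that work with claudins. They were lower in MIA PaCa-2 for 20 of 30 probes and higher for 5, against 31.1% and 39.3% of all probes. Their median log2 difference was -1.96. Of the 23 that were well above background on all 8 arrays, 15 were lower and 4 higher, against 29.8% and 40.2% of all such probes. The junction membrane gene MARVELD3 differed by at least 26.2-fold (limma adjusted p = 3.36e-06), the polarity gene CRB3 by -6.24 (8.96e-07) and the junction plaque gene CGN, which codes for cingulin, by -6.06 (2.15e-07). Among the 5 higher probes were both tested probes of JAM2, a junction molecule also found in endothelium, by 3.05 and 1.90. Adherens junction and desmosome genes were lower for 19 of 23 probes and higher for 1, with a median of -1.76. Of the 18 that were well above background on all 8 arrays, 15 were lower and 1 higher. EPCAM and CDH1 were lower in MIA PaCa-2 by at least 3999-fold and 893-fold (limma adjusted p = 2.15e-07 and 2.94e-07), and the desmosomal cadherin gene DSG3 by at least 6.25-fold (6.31e-04). MARVELD3, EPCAM, CDH1 and DSG3 entered the test only through Capan-1, a route that favours this direction.

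**Figure D2:**
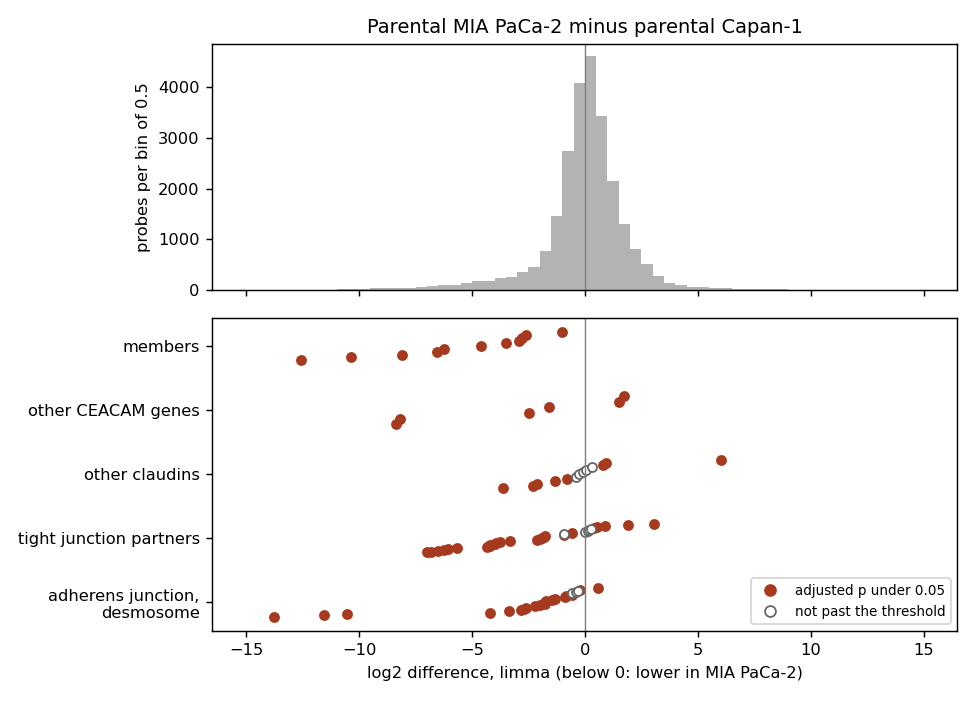
Log2 difference of parental MIA PaCa-2 minus parental Capan-1 from limma (x axis, below 0 is lower in MIA PaCa-2), as a histogram of all 24968 probes tested (upper panel, probes per bin of 0.5) and as 1 circle per probe for the members and the 4 related lists (lower panel, rows). Filled circles passed an adjusted p of 0.05; the 11 member probes all lie at -1.0 or below, while the other claudins lie on both sides of 0.

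After HOXB7 siRNA in MIA PaCa-2, none of the members passed the test in either direction. Of 8 probes tested, 0 had a limma adjusted p under 0.05 and 2 an unadjusted p under 0.05, CEACAM1 probe 1 and CLDN4. Of 23719 probes tested 2.72% passed, 1.37% as lower and 1.34% as higher, and 21.3% had an unadjusted p under 0.05. An interval holding 99% of the log2 ratios between the parental arrays, which is part of the rule of the study's methods, also gave 0 members in each line. Its ratios set each siRNA array against the parental array of the same replicate number. In MIA PaCa-2 the interval did not call HOXB7 either, with log2 ratios of -2.94 and -3.69 against limits of 4.10 and 3.97. In Capan-1 it called HOXB7 lower, with log2 ratios of -2.77 and -2.46 against limits of 1.56 and 1.51. The share of all probes outside the interval is not given here, so its 0 is not read as a result about the members. The methods also ask for at least 2 probes per gene with full agreement, which was not applied, and 8 of the 10 members have 1 probe. The median log2 change was -0.01 over the 8 member probes and 0.02 over all probes. The groups did not overlap for 2 of 8 member probes, against 51.2% of all probes.

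CLDN4 was at 4.17 and 4.06 on the parental and 3.74 and 3.77 on the siRNA arrays of MIA PaCa-2. Both siRNA arrays were below both parental arrays, with a log2 change of -0.36 (95% interval -0.57 to -0.16, limma adjusted p = 0.0798). This value passed with the normexp correction (-0.40, adjusted p = 0.0352) and with a spread that follows intensity (adjusted p = 0.0284), and over all alternatives the adjusted p ranged from 0.0284 to 0.241. CEACAM1 probe 1 was at -3.03 and -3.06 on the parental and -3.45 and -3.42 on the siRNA arrays, a log2 change of -0.40 (95% interval -0.61 to -0.18, limma adjusted p = 0.0739). CEACAM1 probe 2 did not follow it, with -2.87 and -3.46 on the parental and -2.67 and -3.01 on the siRNA arrays (log2 change 0.32, 95% interval -0.20 to 0.84, adjusted p = 0.446).

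CLDN3 had the widest spread of the tested members in MIA PaCa-2, with -5.25 and -6.05 on the parental and -3.96 and -5.31 on the siRNA arrays. The groups overlapped, the log2 change was 1.01 (95% interval -0.09 to 2.12, limma adjusted p = 0.267), and it was 0.34 without siRNA replicate 1. CLDN7 was at -2.53 and -2.09 before and -2.63 and -2.44 after siRNA (log2 change -0.23, 95% interval -0.62 to 0.17). CLDN1 was at -0.91 and -0.61 before and -0.65 and -0.64 after siRNA (0.11, 95% interval -0.18 to 0.40). For CLDN7 and CLDN1 the siRNA levels lay within or across the range of the parental arrays. CLDN2 (-2.19 and -2.28 before, -2.29 and -2.01 after) and CEACAM7 probe 1 (-3.15 and -3.16 before, -3.12 and -3.40 after) changed by 0.08 (95% interval -0.19 to 0.36) and -0.10 (-0.42 to 0.21). Without scaling between arrays, which shifts every change in this line by -0.22, CLDN1 and CLDN2 had the opposite sign.

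Of the members at background in MIA PaCa-2, CEACAM5 was at -6.05 and -7.51, CEACAM6 at -7.83 and -7.88, CEACAM7 probe 2 at -7.60 and -7.87 and CLDN18 at -7.90 and -7.96 after siRNA. None of these probes was well above background on a siRNA array, and their siRNA changes were not tested.

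In Capan-1, all 12 member probes were tested and 0 passed, by limma at an adjusted p under 0.05, with 3 at an unadjusted p under 0.05. This line gave almost no calls over the whole array: 0.00428% of 23376 probes, a single probe that was higher, while 13.2% had an unadjusted p under 0.05. The median log2 change of the members was -0.05, that of all probes was 0.00, and groups did not overlap for 8 of 12 member probes, against 54.2% of all probes.

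CLDN18 had the largest fitted log2 change of the 12 probes. It was at -5.94 and -5.54 on the parental and at -3.93 and -3.95 on the siRNA arrays of Capan-1, with processed intensities of 4.30 and 6.68 before and 16.4 and 17.2 after siRNA. Both siRNA arrays were above both parental arrays, and the log2 change was 1.80 (95% interval 1.33 to 2.27, 3.49-fold, limma adjusted p = 0.0998). It passed with quantile normalization (1.81, adjusted p = 0.0140) and without scaling (1.65, adjusted p = 0.0407), was 0.47 with the normexp correction, and over all alternatives its adjusted p ranged from 0.0140 to 0.193. All 4 arrays lay at the dim end of the scale, where the interval from the parental arrays reached 3.12 in either direction.

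CEACAM7 gave unlike values at its 2 probes in Capan-1. Probe 2 was at -4.61 and -3.94 before and, not well above background, at -5.37 and -5.54 after siRNA. Its fitted log2 change was -1.18 (95% interval -1.78 to -0.58, limma adjusted p = 0.198), and with the normexp correction this change was -0.05. Probe 1, whose signal was well above background throughout, was at 3.40 and 3.44 before and 3.29 and 3.04 after siRNA (log2 change -0.26, 95% interval -0.57 to 0.06, adjusted p = 0.448). CLDN2 was at -1.23 and -1.24 before and -0.83 and -0.93 after siRNA, with both siRNA arrays above both parental arrays (log2 change 0.36, 95% interval 0.09 to 0.63, limma adjusted p = 0.302).

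The other members had log2 changes of -0.18 to 0.16 in Capan-1. CEACAM6 was at 4.64 and 4.77 before and 4.62 and 4.44 after siRNA (log2 change -0.18, 95% interval -0.72 to 0.37). CEACAM5 was at 1.33 and 1.43 before and 1.32 and 1.14 after siRNA (-0.15, 95% interval -1.23 to 0.93). CLDN3 (4.69 and 4.78 after siRNA), CLDN7 (3.84 and 3.93) and CLDN1 (3.67 and 3.83) changed by 0.02, -0.02 and -0.09, with intervals of -1.08 to 1.12, -0.41 to 0.37 and -0.38 to 0.21. The fit pools the spread over all 4 groups, and for CEACAM5 and CLDN3, whose intervals were wide, the duplicates of MIA PaCa-2 differed most. CLDN4 was at 6.83 and 6.93 after siRNA (log2 change 0.16, 95% interval -0.04 to 0.36), and without scaling this was -0.00. CEACAM1 was at 0.06 and -0.08 at probe 1 and at -0.48 and -0.66 at probe 2 after siRNA, with log2 changes of 0.09 (95% interval -0.12 to 0.31) and -0.18 (-0.69 to 0.34).

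**Figure D3:**
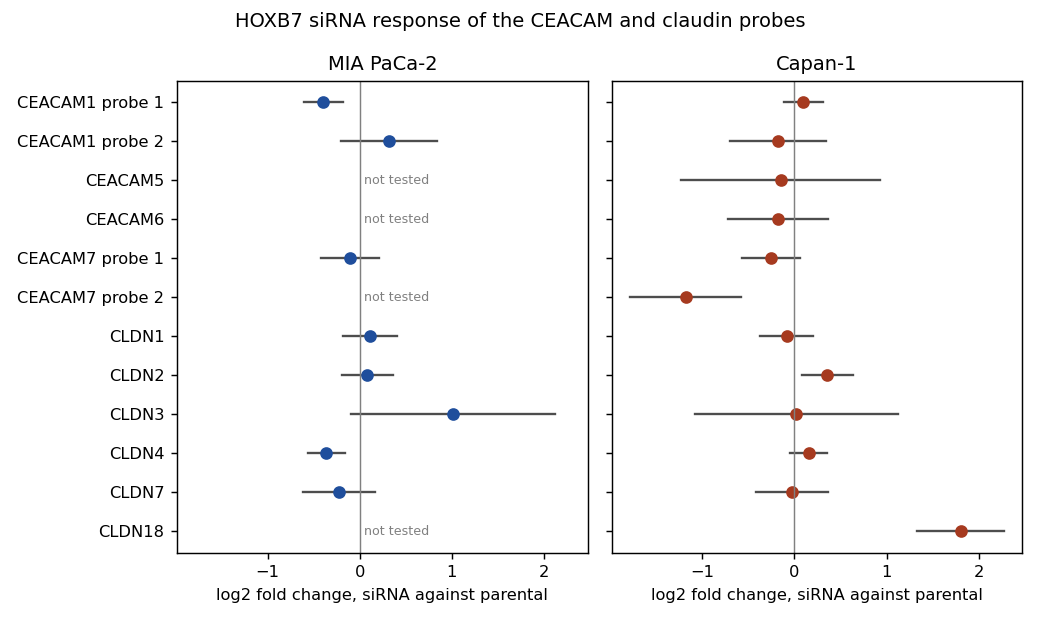
Log2 fold change of siRNA against parental arrays (x axis) for each member probe (rows) in MIA PaCa-2 (left) and Capan-1 (right), with circles for the limma estimate and bars for its 95% interval. Probes marked as not tested were not well above background on both arrays of either group; no member passed an adjusted p of 0.05, and CLDN18 in Capan-1 lies farthest from 0, at 1.80.

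Whether the response differed between the lines was tested as MIA PaCa-2 minus Capan-1. Of 12 member probes 0 passed by limma at an adjusted p under 0.05 and 4 had an unadjusted p under 0.05, while 0.00783% of 25554 probes passed, 0.00391% in each direction, and 11.1% had an unadjusted p under 0.05. CLDN18 differed by -1.78 (95% interval -2.46 to -1.10, adjusted p = 0.143), but its MIA PaCa-2 levels were at background, and with quantile normalization the adjusted p was 0.0444 (range over the alternatives 0.0444 to 0.507). CLDN4 differed by -0.52 (95% interval -0.81 to -0.23, limma adjusted p = 0.236), the MIA PaCa-2 value being -0.36 and the Capan-1 value 0.16. For CEACAM1 the 2 probes gave opposite values of the same size, -0.49 (95% interval -0.80 to -0.18) and 0.49 (-0.26 to 1.25). CEACAM7 probe 2 differed by 1.19 (95% interval 0.32 to 2.06, limma adjusted p = 0.329), again with MIA PaCa-2 levels at background.

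Some tight junction partners passed the test in MIA PaCa-2 after siRNA, and whether the list differed from the members was not tested. Of 26 probes 6 were lower and 1 was higher, against 1.37% and 1.34% of all probes, and the median log2 change was -0.23. An unadjusted p under 0.05 was found for 12 of the 26, against 21.3% of all probes. MARVELD2, which codes for tricellulin of the junctions where cells meet in corners, was lower at both probes (-0.80 and -0.87, limma adjusted p = 0.0362 and 0.0492). With the normexp correction the change of its second, dimmer probe was -0.07 (limma adjusted p = 0.634). F11R, the junction adhesion molecule JAM-A, was lower by -0.59 at the brighter probe (limma adjusted p = 0.0335), as was JAM2 by -0.59 at its brightest probe (0.0354). The next JAM2 probe, at -3.42 and -3.48 before and -3.83 and -3.72 after siRNA, did not pass. The polarity scaffold gene MPP5 was lower by -0.59 (limma adjusted p = 0.0444). PARD6A, another polarity gene, was lower by -0.52 (limma adjusted p = 0.0468). CGN was higher by 0.97 (limma adjusted p = 0.0148), with levels of -2.51 and -2.61 before and -1.52 and -1.65 after siRNA, but did not pass without scaling (adjusted p = 0.154), with no filter on dim probes (0.0570) or with this line fitted alone (0.119). These calls lay near the threshold: the number of lower probes was 0 without scaling, with no filter on dim probes, with the replicate block or with this line fitted alone, and 0 or 1 when any of the 8 arrays was left out. In Capan-1, 0 of 30 probes of this list passed by limma, with 5 at an unadjusted p under 0.05.

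**Figure D4:**
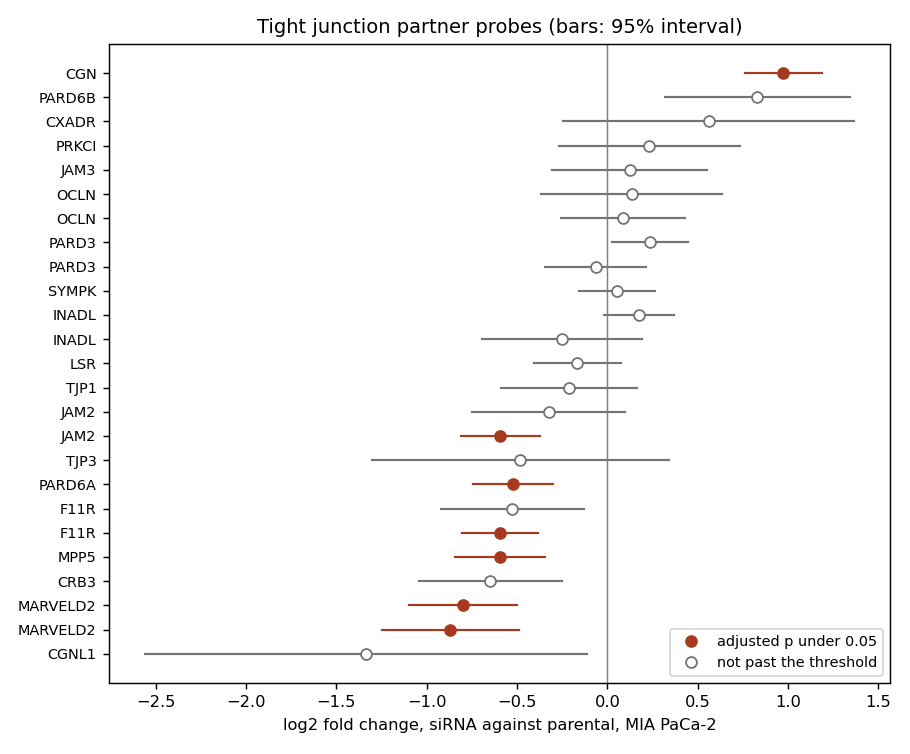
Log2 fold change of siRNA against parental arrays in MIA PaCa-2 (x axis) for 25 of the 26 tested probes of tight junction partner genes (rows, a gene with several probes has several rows), with circles for the limma estimate and bars for its 95% interval. Filled circles passed an adjusted p of 0.05; CGN lies at 0.97 and the 6 filled probes on the left between -0.87 and -0.52.

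Of the other CEACAM genes, the other claudins and the adherens junction and desmosome genes, 0 probes passed by limma after siRNA in either line. At an unadjusted p under 0.05 there were 0 of 4, 2 of 11 and 7 of 18 probes in MIA PaCa-2, against 21.3% of all probes, and 0 of 7, 1 of 13 and 2 of 23 in Capan-1, against 13.2%.

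The genes whose pattern over the 8 arrays was most like that of CEACAM6 and CLDN4 were named by the root mean square difference between log2 levels, each centred on its own mean, over 25447 probes. Closest to CEACAM6 were the keratin gene KRT23 (0.126), the tetraspanin gene TSPAN8 (0.286) and the annexin gene ANXA3 (0.317), which were also well above background on all Capan-1 and on no MIA PaCa-2 arrays. Closest to CLDN4 were LLGL2 (0.0889), a gene of basolateral polarity, the surface glycoprotein gene TPBG (0.0924) and TBC1D9 (0.0934). The mean log2 level of LLGL2 was 0.36 and -0.07 before and after siRNA in MIA PaCa-2, and 3.11 and 3.06 in Capan-1. The points share arrays and scaling, and the measure is a description with no test.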

How the data were processed

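Total RNA of 8 samples was hybridized to Agilent human 4x44K arrays after Cy3 labelling of 200 ng. The authors scanned the arrays and extracted each spot with Agilent Feature Extraction 9.5.3, and the deposited processed intensity is background-subtracted by that software. The authors also deposited a table of log2 values, which equals the log2 of these intensities within 3.45e-08 and was used as an alternative. Here spots with an outlier flag and control spots were left out, log2 values were averaged per probe, and each array was set to 0 at the 75th percentile of its 34127 gene probes. A few probes (151) lacked a value on at least 1 array, none of them a member.

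All 8 arrays entered a single model of 4 group means (limma 3.58.1, lmFit and eBayes, under R 4.3.3), tested two-sided, with Benjamini-Hochberg adjustment over all probes tested. Errors are standard errors of this fit, n = 2 arrays per group. With 2 arrays against 2, an exact permutation test cannot go below p = 0.33 and was not used. The script was tested on simulated data. The members and lists were chosen with earlier results of these data known, and no list was given a p-value of its own. Named were all members, HOXB7, up to 4 genes of each related list past the threshold with the largest change, and the 3 probes most like CEACAM6 and CLDN4, except that 2 genes of the related lists are not reported here. KRT19 and the mesenchymal markers were added as checks, and JAM2 in the parental comparison and the tight junction partners beyond the 4 largest changes after siRNA were named after their values were seen. The lists are other CEACAM genes, other claudins, tight junction partners, adherens junction and desmosome genes, and markers of epithelial, mesenchymal, leukocyte, endothelial and acinar cells. In the parental comparison 7 of 8 epithelial probes were lower, and mesenchymal probes were 3 lower and 3 higher, endothelial probes 1 and 1, and acinar probes 2 and 0. Of all probes tested there, 31.1% were lower and 39.3% higher. Upstream windows came from RefSeq (GRCh38.p14) and were read with Python 3.11.15, pandas 2.3.3 and Biopython 1.88, and figures were drawn with matplotlib 3.10.9. The siRNA arrays were the first and the parental arrays the last on each slide, so position and treatment cannot be told apart, and the number of arrays limits the precision. Alternatives were another background correction, 2 other scalings, outlier spots kept, the deposited log2 table, 2 other filters, an intensity trend, a replicate block, each line or the parental arrays alone, the 99% interval with a window of 1000 probes, and each array left out. No array-wide effect shared by arrays of the same replicate number was seen, and the labels do not say whether these were paired.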

Additional observations from a re-analysis of the deposited data

How the results depend on the processing

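No parental member difference that was tested changed direction or lost its call under any alternative, the filter for signal on all 8 arrays leaving 7 probes, all lower; this filter also left 1 lower probe of the other CEACAM genes and 3 of the other claudins. Dim probes limit the rest: CEACAM5, CEACAM6, CLDN18 and CEACAM7 probe 2 have only an upper limit in MIA PaCa-2, and CLDN3 was measured on 1 of 2 parental arrays there. For siRNA against parental in MIA PaCa-2, 1 member probe (CLDN4) passed with normexp and 1 with an intensity trend. In Capan-1, 1 member probe (CLDN18) passed as higher with quantile normalization and 1 without scaling, and with quantile normalization 1 passed in the difference of the responses. HOXB7 in MIA PaCa-2 was -0.10 with normexp, and the difference of its responses then turned to 0.56. Why these calls moved was not tested.

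The lower tight junction partners in MIA PaCa-2 numbered 6 in the report, 3 with normexp and 0 without scaling, without the filter and with this line alone, and 0 to 1 when an array was left out. The single higher one was 0 without scaling, without the filter and with this line alone, 2 with an intensity trend, and 0 to 3 when an array was left out. With the replicate number as a block, 0 of these probes passed as lower, and no member call changed. The correlations of same-numbered arrays ranged from -0.047 to 0.086, so that no array-wide effect shared by number was seen. Whether same-numbered cultures were paired cannot be told from this.

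Changes near 0 took the other sign. With normexp these were CEACAM7 probe 1 (0.069) and CLDN7 (0.019) in MIA PaCa-2, CLDN3 (-0.0014) in Capan-1 and the difference of responses of CLDN7 (0.025). Without scaling they were CLDN1 (-0.11) and CLDN2 (-0.13) in MIA PaCa-2, and CEACAM1 probe 1 (-0.063), CLDN3 (-0.14) and CLDN4 (-0.00079) in Capan-1. With quantile normalization they were CLDN3 in Capan-1 (-0.020) and the difference of responses of CEACAM5 (-0.023). With an array left out, CEACAM7 probe 1 ranged from -0.25 to 0.036, CLDN1 from -0.036 to 0.26 and CLDN2 from -0.054 to 0.22 in MIA PaCa-2, and CLDN3 from -0.026 to 0.069 and CLDN7 from -0.097 to 0.051 in Capan-1. The differences of responses then ranged from -0.62 to 0.83 for CEACAM5, from -0.18 to 0.53 for CEACAM6 and from -0.42 to 0.015 for CLDN7.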
